A study of Rattus norvegicus with 10 samples.

Results

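The 29 genes described here encode the voltage-gated calcium and sodium channels of the rat array, together with Cbarp, a membrane protein that binds calcium channel beta subunits and lowers calcium channel activity. They were read by 47 probe sets that name a single gene: 20 for pore-forming calcium channel subunits (Cacna1), 2 for alpha-2-delta subunits (Cacna2d), 7 for calcium channel beta subunits (Cacnb), 9 for pore-forming sodium channel subunits (Scn with the ending a), 5 for sodium channel beta subunits (Scn with the ending b) and 4 for Cbarp. The array named 14217 genes in all by single-gene probe sets. The channel genes were taken by symbol, while Cbarp was added because of its difference between the groups compared here. That difference is therefore given as a description, and calls of the fit over all probe sets are not read as evidence for or against it.

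Each array carried total RNA of the whole right side of the brain, a mixture of regions, of 1 male Wistar rat aged 7 weeks. The 5 control rats breathed air drawn over distilled water, and the 5 DMHF rats air drawn over DMHF, a dimethyl hydroxy furanone with a sweet smell that occurs in fruit and cooked food. Inhalation lasted 5 min with 5 mL of liquid in the flask, took place before the dark period, and was followed by 10 min of rest before the rats were killed. The design asks how brain gene expression stands a short time after breathing the odor. The samples are labelled as biological replicates, but the sources used here do not tell whether rats shared a cage or litter.

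Voltage-gated calcium channels open on depolarisation and let in the calcium that triggers transmitter release, dendritic spikes and gene transcription. Their pore-forming subunit travels with an intracellular beta subunit and an extracellular alpha-2-delta subunit, both of which raise the number of channels at the membrane. Voltage-gated sodium channels carry the upstroke of the action potential, and their beta subunits, which resemble cell adhesion molecules, tune gating and placement in the axon.

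Because the arrays differed very little on the deposited log2 scale, a difference is given in millionths of a log2 unit and in units of the spread between rats of a group (its within-group SD, pooled over both groups). Neither can be read as a fold change of RNA, and the first is not comparable between probe sets. A percentile of a within-group SD ranks the deposited numbers only, and does not show that RNA levels spread little or widely. The SD of a probe set over all 10 arrays had a median of 2.20 millionths. Array medians lay at 7.24 and differed by at most 15.2 millionths, and 0 pairs of arrays were identical. All 6 neuron markers measured (Snap25, Syt1, Rbfox3, Stmn2, Eno2 and Map2) lay above the array median, as did 5 of 5 astrocyte and 4 of 4 oligodendrocyte markers, against 1 of 6 muscle and 1 of 4 sensory ganglion markers. In RNA of so mixed a tissue, fewer cells of a type and less RNA per cell cannot be told apart.

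Promoter sequences are shown for the genes with the largest difference in either direction in within-group SD. Of the 29 genes, 22 had at least 1 RefSeq window in assembly GRCr8, 26 windows in all, taken here as the 250 bases before an annotated start. The windows of Cbarp (chr7:10217103-10217352, plus strand) and Cacna2d3 (chr16:4918900-4919149, minus strand) read as follows, with matches to the GC box letters GGGCGG, on either strand, in capitals.
Cbarp: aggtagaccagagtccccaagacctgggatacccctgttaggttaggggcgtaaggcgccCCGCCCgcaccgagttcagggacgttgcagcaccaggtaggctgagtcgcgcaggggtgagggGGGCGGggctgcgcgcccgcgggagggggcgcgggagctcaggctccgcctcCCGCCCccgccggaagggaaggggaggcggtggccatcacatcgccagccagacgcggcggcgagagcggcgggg
Cacna2d3: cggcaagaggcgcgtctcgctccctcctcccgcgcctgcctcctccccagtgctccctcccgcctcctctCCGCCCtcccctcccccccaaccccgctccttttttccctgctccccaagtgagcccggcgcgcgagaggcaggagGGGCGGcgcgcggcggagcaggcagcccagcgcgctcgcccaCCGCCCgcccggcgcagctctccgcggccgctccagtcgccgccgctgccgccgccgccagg
Both windows held 3 such matches, and they held 27 and 34 CG dinucleotides respectively. A second annotated start of Cbarp (chr7:10217919-10218168) had 9 CG dinucleotides and no GGGCGG match. Over the 26 windows the number of CG dinucleotides ran from 1 (Scn2b and Cacna1s) to 56 (Cacna1d), with a median of 10.0 against 5.00 over all 33469 windows. GGGCGG stood in 13 of the 26 windows and in 30.5% of all windows, TATAAA in 1 (Cacna1s) and in 12.9%, and the cAMP response element TGACGTCA in 0 and in 1.59%, each searched on both strands. Windows of 1 gene can overlap, as for Cacna2d1, whose windows all held GGGCGG, so windows do not count as separate genes. A match describes the letters of a window and is no measured binding site.

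Between rats that breathed DMHF and control rats, 0 (0%) of all 31042 probe sets had an adjusted p under 0.05 by limma with Benjamini-Hochberg adjustment over the whole table, so no channel or Cbarp probe set was called. With an unadjusted p under 0.05, there were by limma 3 of the 47 higher in DMHF, against 3.23% of all probe sets, and 1 lower, against 2.25%. The 3 were 2 probe sets of Cbarp and 1 of Cacna1h, and the 1 was that of Cacna2d3. The range of the 5 DMHF rats lay wholly above that of the controls for 1 of the 47 (0.535% of all probe sets) and wholly below for 0 (0.332%). Since the genes were chosen with this comparison known, nothing is read from these counts.

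Without Cbarp, the 43 channel probe sets split into 22 with a positive and 21 with a negative difference. Their median was 0.07 within-group SD, against 0.05 over all probe sets. A difference of over 1 SD in size was seen for 10 of the 43 (23.3%), against 16.2% of all probe sets. The lowest was Cacna2d3 at -2.10 SD and the highest Cacna1h at 1.64 SD.

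**Figure D1:**
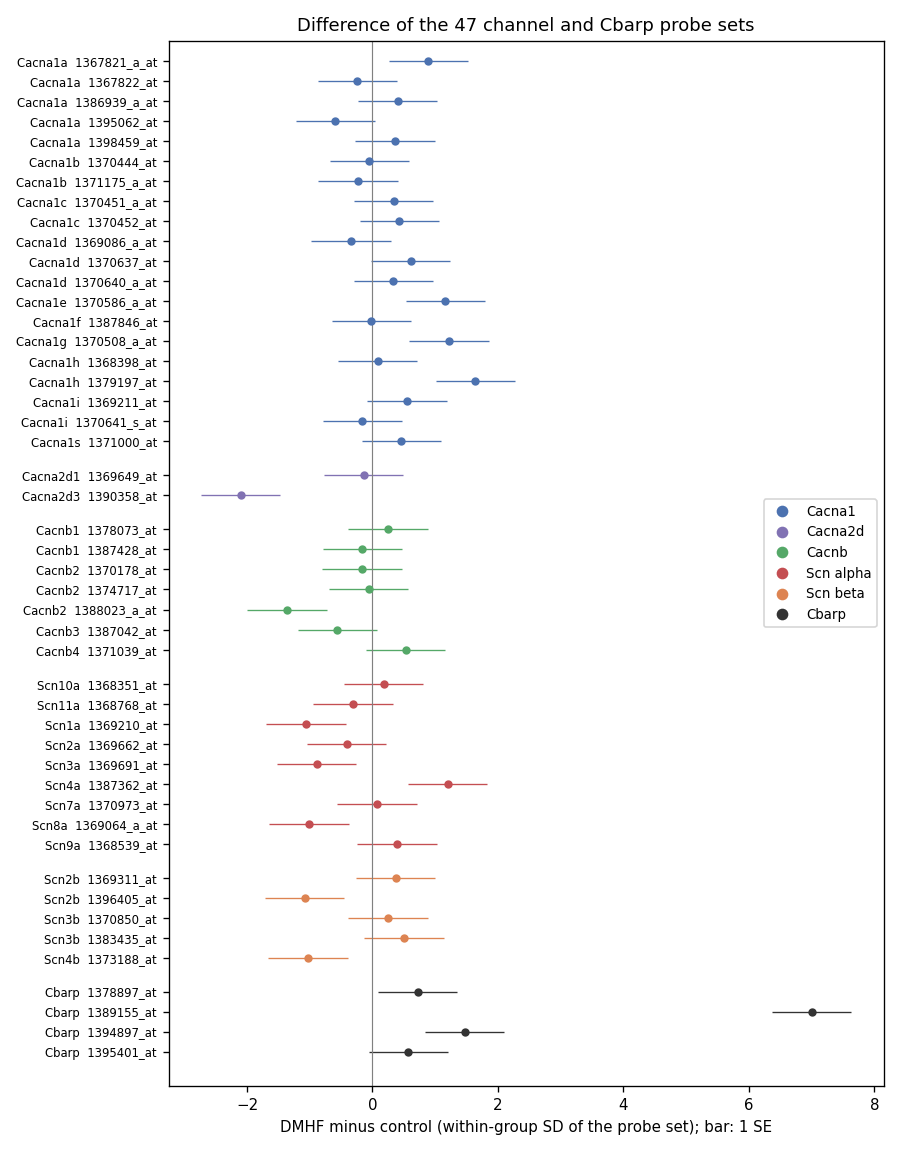
Difference between DMHF and control (horizontal axis, in within-group SD of each probe set) for the 47 probe sets, grouped by subunit family. Points are mean differences and bars are 1 SE from the spread of 5 rats a group. Cbarp 1389155_at stands at 7.00, while the 43 channel probe sets lie between -2.10 and 1.64.

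Cbarp was nominally higher in DMHF on all 4 of its probe sets, but the groups were separate on 1 only. On that probe set, 1389155_at, with a mean level of 10.74, the control rats 1 to 5 stood at -0.118, 0.322, -0.188, 0.152 and -0.168 millionths from the control mean. The DMHF rats stood at 1.77, 1.78, 1.56, 1.87 and 1.26 millionths. All DMHF rats thus lay above all controls, with a gap from 0.322 to 1.26. The difference was 1.65 millionths (SE 0.149 from the spread of the rats), or 7.00 within-group SD, with an SD of 0.226 among controls and 0.245 among DMHF rats. In SD units it was the highest over all 31042 probe sets, so it is the maximum of many values. The spread behind it is itself small in the deposited numbers: the within-group SD of 0.236 millionths lay at the 3.87th percentile of all probe sets. When each array's median was subtracted, the difference was 1.60 millionths and the groups overlapped, and after quantile normalization the probe set was constant over arrays.

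Its other probe sets overlapped between groups. On 1394897_at (mean level 7.21) the controls ran from -7.53 to 6.14 and the DMHF rats stood at 6.37, 10.8, 5.94, 15.5 and 1.29 millionths, so that 3 of 5 lay above all controls. The difference was 7.99 millionths (SE 3.43), or 1.47 SD. On 1378897_at (6.73) it was 1.97 (SE 1.72), or 0.72 SD, again with 3 of 5 DMHF rats above all controls. On 1395401_at (7.84) it was 3.07 (SE 3.38), or 0.57 SD, and control replicate 5 lay far below the other controls at -11.3.

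Over the 10 rats, the deviations of 1389155_at from its group means ran with the choroid plexus marker list at r = 0.83 (rho 0.78, permutation p = 0.00467, n = 10 rats). Adjusted over 564 such relations the p was 0.239, and r was 0.81 without the 2 rats farthest from the median of the list. On the other Cbarp probe sets r with that list was -0.08, 0.40 and 0.58. The choroid plexus list also stood nominally higher in DMHF on 6 of 6 measured genes (Ttr, Folr1, Sostdc1, F5, Kl and Otx2), with a mean score from -1.12 to 1.0 SD in control rats and from -0.11 to 2.10 in DMHF rats. Mean levels of its genes ran from 6.47 to 12.78, and 4 of 6 lay above the array median. Its part in the Cbarp difference was not tested. Over the 10 rats, the choroid plexus and ependyma list scores ran together at r = 0.90, so these lists do not count separately. The ependyma list, whose 5 genes all lay below the array median, was nominally higher on 5 of 5 genes, from -0.92 to 1.10 in controls and 0.34 to 1.89 in DMHF rats, and ran with 1389155_at at r = 0.63 (rho 0.61, permutation p = 0.0549, adjusted p = 0.397, n = 10 rats; r = 0.86 without 2 rats).

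**Figure D2:**
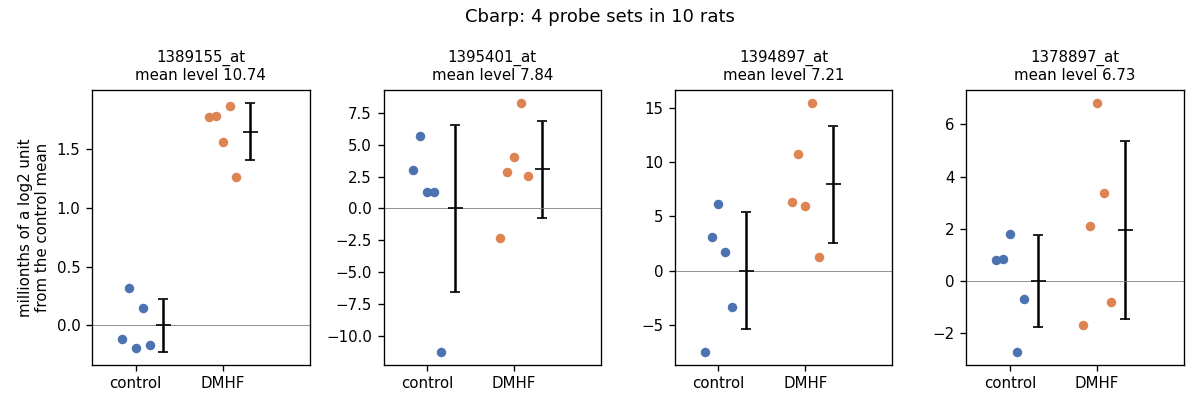
Values of the 4 Cbarp probe sets in single rats (vertical axis, millionths of a log2 unit from the control mean), ordered from the brightest at left. Dots are rats, dashes with bars are the group mean and SD (n = 5). Only 1389155_at, at left, shows groups that do not overlap, between 0.322 and 1.26.

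The presynaptic calcium channels of the P/Q, N and R types (Cacna1a, Cacna1b and Cacna1e) drive fast transmitter release. Their 8 probe sets had 4 positive and 4 negative differences and a median of 0.15 SD. Cacna1a, the P/Q-type pore that dominates at most central synapses and in Purkinje cells, was read by 5 probe sets that went both ways. The largest was 1367821_a_at at 6.15 millionths (SE 4.38), or 0.89 SD. There the controls stood at -2.56, -4.05, -3.22, -1.10 and 10.9 and the DMHF rats at -3.46, 0.831, 7.24, 10.6 and 15.5. The groups overlapped, since control replicate 5 stood above 4 of the DMHF rats and DMHF replicate 1 below 4 of the controls.

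The other 4 Cacna1a probe sets lay between -0.59 SD (1395062_at) and 0.40 SD (1386939_a_at). Cacna1b, the N-type pore, differed by -0.0416 millionths (SE 0.546) and -0.563 (SE 1.53) on its probe sets, or -0.05 and -0.23 SD. Cacna1e, the R-type pore, stood at 1.06, 1.25, 0.0884, 0.744 and 0.997 in the DMHF rats, all above the control mean. Its controls stood at 0.263, -0.716, 1.22, -1.05 and 0.283, so 3 controls lay among them. The difference was 0.828 millionths (SE 0.450), or 1.16 SD, at a mean level of 6.25.

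The L-type channels (Cacna1c, Cacna1d, Cacna1f and Cacna1s) couple depolarisation to transcription in neurons and to contraction in muscle. Their 7 probe sets lay between -0.34 and 0.61 SD, with 5 positive and 2 negative differences. Cacna1c differed by 0.219 millionths (SE 0.324) and 1.0 (SE 1.86), and Cacna1d by -0.324 (SE 0.595), 1.5 (SE 1.55) and 1.58 (SE 3.06). Each of these differences was smaller than its SE. Cacna1f, the retinal L-type pore, at -0.02 SD, and Cacna1s, that of skeletal muscle, at 0.46 SD, had mean levels of 6.70 and 6.21, below the array median. Probe sets at such low levels were not checked for whether they read true transcripts.

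The low-voltage-activated T-type channels (Cacna1g, Cacna1h and Cacna1i) carry the burst firing of thalamic and other neurons. Their 5 probe sets had 4 positive differences and a median of 0.55 SD. Cacna1h on 1379197_at stood at 4.32, 11.3, 4.43, -0.0734 and 7.18 millionths in the DMHF rats, against 0.156, -1.20, 0.631, -2.58 and 2.99 in the controls. Of the 5 DMHF rats, 4 lay above all controls and replicate 4 lay among them. The difference was 5.44 millionths (SE 2.10), or 1.64 SD, at a mean level of 6.26.

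The brighter Cacna1h probe set, 1368398_at at 7.97, differed by 1.23 (SE 9.18), or 0.08 SD. It spread widely, from -10.8 to 24.1 among controls and from -24.4 to 13.4 among DMHF rats. Cacna1g had 1.36, 0.192, 0.414, 1.69 and 1.52 millionths in the DMHF rats and 0.723, 1.31, -0.422, -0.483 and -1.12 in the controls. All DMHF rats were above the control mean and 3 of 5 above all controls, with a difference of 1.04 (SE 0.537), or 1.22 SD. The 2 probe sets of Cacna1i went opposite ways, at 0.55 and -0.16 SD.

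Alpha-2-delta subunits, which carry calcium channels to the terminal, were read by 1 probe set each for Cacna2d1 and Cacna2d3. In within-group SD, Cacna2d3 had the largest negative difference of all 47 probe sets. Its controls stood at -0.938, -1.84, 1.05, -0.403 and 2.13 millionths and its DMHF rats at -6.34, -1.69, -2.58, -4.24 and -2.99. All DMHF rats lay below the control mean and 4 of 5 below all controls, with only replicate 2 at -1.69 above control replicate 2 at -1.84. The difference was -3.57 millionths (SE 1.07), or -2.10 SD, and ranged from -4.04 to -2.87 with single arrays left out. Its mean level was 9.79.

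Beside this difference, all 6 striatum markers measured were nominally lower in DMHF, with a mean score from -0.91 to 1.35 SD in controls and -1.30 to 0.41 in DMHF rats. Over the 10 rats, Cacna2d3 deviated with that list at r = 0.80 (rho 0.85, permutation p = 0.00695, adjusted p = 0.245, n = 10 rats; r = 0.71 without 2 rats). It deviated against the choroid plexus list at r = -0.79 (rho -0.79, permutation p = 0.00815, adjusted p = 0.252, n = 10 rats; r = -0.80 without 2 rats). All 6 lay above the array median, at 7.90 to 10.43, and the part of either list in the Cacna2d3 difference was not tested. Cacna2d1, stood between -0.482 and 0.518 in controls and -1.09 and 0.768 in DMHF rats. That difference was -0.0800 millionths (SE 0.360), or -0.14 SD.

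Calcium channel beta subunits (Cacnb1 to Cacnb4), the partners that Cbarp binds, had 2 positive and 5 negative differences over 7 probe sets and a median of -0.16 SD. On Cacnb2 1388023_a_at the DMHF rats stood at 0.401, -5.16, -1.03, -1.80 and -2.79 millionths and the controls at 0.660, -0.114, -0.393, 0.539 and -0.690. Of the DMHF rats, 4 lay below all controls and replicate 1 lay among them. The difference was -2.08 (SE 0.966), or -1.36 SD, with an SD of 2.08 among DMHF rats against 0.585 among controls. The other Cacnb2 probe sets, 1370178_at and 1374717_at, stood at -0.17 and -0.06 SD.

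Cacnb3 differed by -1.35 millionths (SE 1.52), or -0.56 SD, and the probe sets of Cacnb1 by 0.25 and -0.16 SD. Cacnb4, the subunit paired with P/Q-type channels in the cerebellum, was set by single rats. Its controls 1 to 4 stood at 9.89, 6.88, 7.43 and 9.22 and control 5 at -33.4, while the DMHF rats ran from -11.7 to 33.3. Its difference of 9.31 millionths (SE 11.1), or 0.53 SD, was 0.948 without control replicate 5 and 3.31 without DMHF replicate 5, and at most 14.6 with a single array left out.

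**Figure D3:**
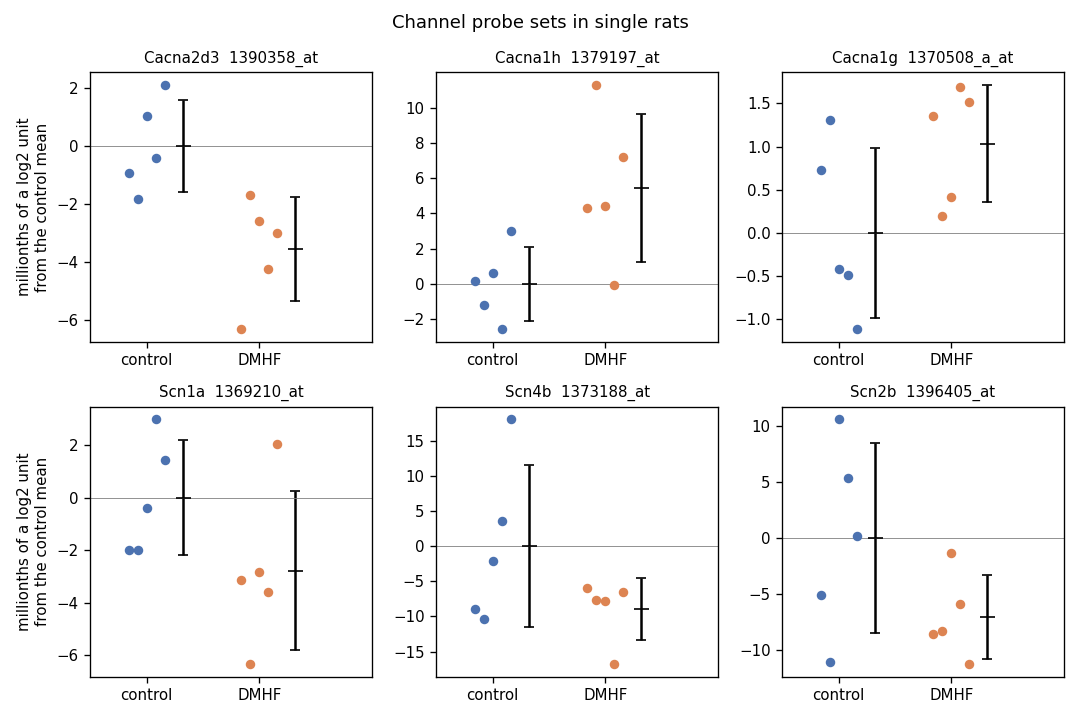
Values of 6 channel probe sets in single rats (vertical axis, millionths of a log2 unit from the control mean; the scale differs between panels). Dots are rats, dashes with bars are the group mean and SD (n = 5). In each panel the groups overlap, for Cacna2d3 by 1 DMHF rat at -1.69.

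Sodium channel pores of central neurons are Scn1a (of fast-spiking interneurons), Scn2a and Scn8a (of the axon initial segment and nodes) and Scn3a (mostly of the developing brain). All 4 had a negative difference. Scn1a had -3.13, -6.35, -2.85, -3.61 and 2.03 millionths in the DMHF rats and -2.01, -1.98, -0.404, 2.98 and 1.43 in the controls. Here 4 DMHF rats lay below all controls and replicate 5 lay among the highest controls. The difference was -2.79 (SE 1.67), or -1.06 SD, at a mean level of 10.28.

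Scn8a stood at -4.07, -3.59, 3.03, -6.23 and -5.53 in the DMHF rats and from -4.23 to 3.46 in the controls. That is a difference of -3.28 millionths (SE 2.06), or -1.01 SD, with DMHF replicate 3 far above the other DMHF rats. Scn3a differed by -4.51 (SE 3.20), or -0.89 SD, with controls from -7.33 to 4.0 and DMHF rats from -7.91 to 3.71. Scn2a, at a mean level of 10.72, had a within-group SD of 0.234 millionths, at the 3.83rd percentile of all probe sets. Its difference of -0.0960 (SE 0.148), or -0.41 SD, lay within that spread.

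The remaining sodium channel pores are those of muscle (Scn4a), of sensory neurons (Scn9a, Scn10a and Scn11a) and the sodium-sensing channel Scn7a of glia in the circumventricular organs. Their mean levels ran from 6.13 to 6.84, all below the array median. Scn4a stood at 0.863, 4.17, 0.465, 1.49 and 1.50 millionths in the DMHF rats and at -2.31, 1.25, 0.557, -0.0162 and 0.519 in the controls. That is a difference of 1.70 (SE 0.891), or 1.20 SD, with 3 of 5 DMHF rats above all controls. The other 4 lay between -0.31 and 0.39 SD.

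In the deposited numbers, Scn9a and Scn7a had wide spreads between rats. Scn9a ran from -47.6 to 42.4 millionths among controls and from -33.5 to 116 among DMHF rats, a within-group SD of 51.1 that lay at the 98.3rd percentile of all probe sets. Its difference of 20.0 (SE 32.3) was -4.09 without DMHF replicate 1 and at most 33.4 with a single array left out. Scn7a ran from -25.8 to 25.9 among controls and from -25.2 to 16.7 among DMHF rats, with a difference of 1.26 (SE 11.7).

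Sodium channel beta subunits had 3 positive and 2 negative differences. Scn4b, which supports resurgent current and is abundant in striatal projection neurons and Purkinje cells, stood at -9.00, -10.4, -2.19, 3.57 and 18.0 millionths in controls. Its DMHF rats stood at -6.01, -7.64, -7.87, -16.8 and -6.55, all below the control mean, with 1 below all controls. The difference was -8.98 (SE 5.52), or -1.03 SD, and was -4.47 without control replicate 5.

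Scn2b had probe sets of opposite sign. On 1396405_at (mean level 10.44) it differed by -7.08 millionths (SE 4.16), or -1.08 SD, with all DMHF rats below the control mean and 1 below all controls. On 1369311_at (7.62) the difference was 5.54 (SE 9.53), or 0.37 SD, and was -3.29 without control replicate 5. That rat stood at -35.3 and the other controls at 3.43 or above. Scn3b lay at 0.25 and 0.50 SD on its probe sets.

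Probe sets of 1 gene can be compared in a way that does not use the difference between groups, by whether they placed the same rats high or low within their group. Over the 29 pairs of probe sets from 11 genes, the Pearson correlation of these deviations had a median of 0.33, with 22 pairs above 0 and 7 below. No pair passed a permutation test at an adjusted p of 0.05 over the 29 pairs, and 1 had an unadjusted p under 0.05. That was Cacna1i, with r = 0.83 (rho 0.77, permutation p = 0.00286, adjusted p = 0.0829, n = 10 rats) and r = 0.65 without the 2 rats farthest from the median. One of its probe sets has the suffix that the array maker uses for probes shared by several transcripts.

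For Cbarp, the 6 pairs ran from 0.01 to 0.61. The highest was that of 1389155_at with 1394897_at (rho 0.58, permutation p = 0.0656, adjusted p = 0.522, n = 10 rats; r = 0.44 without 2 rats). The pair of Scn2b was at -0.02 and that of Scn3b at 0.57 (rho 0.53, permutation p = 0.0864, adjusted p = 0.522, n = 10 rats; r = 0.15 without 2 rats). Among the 10 pairs of Cacna1a, r ran from -0.32 to 0.55.

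**Figure D4:**
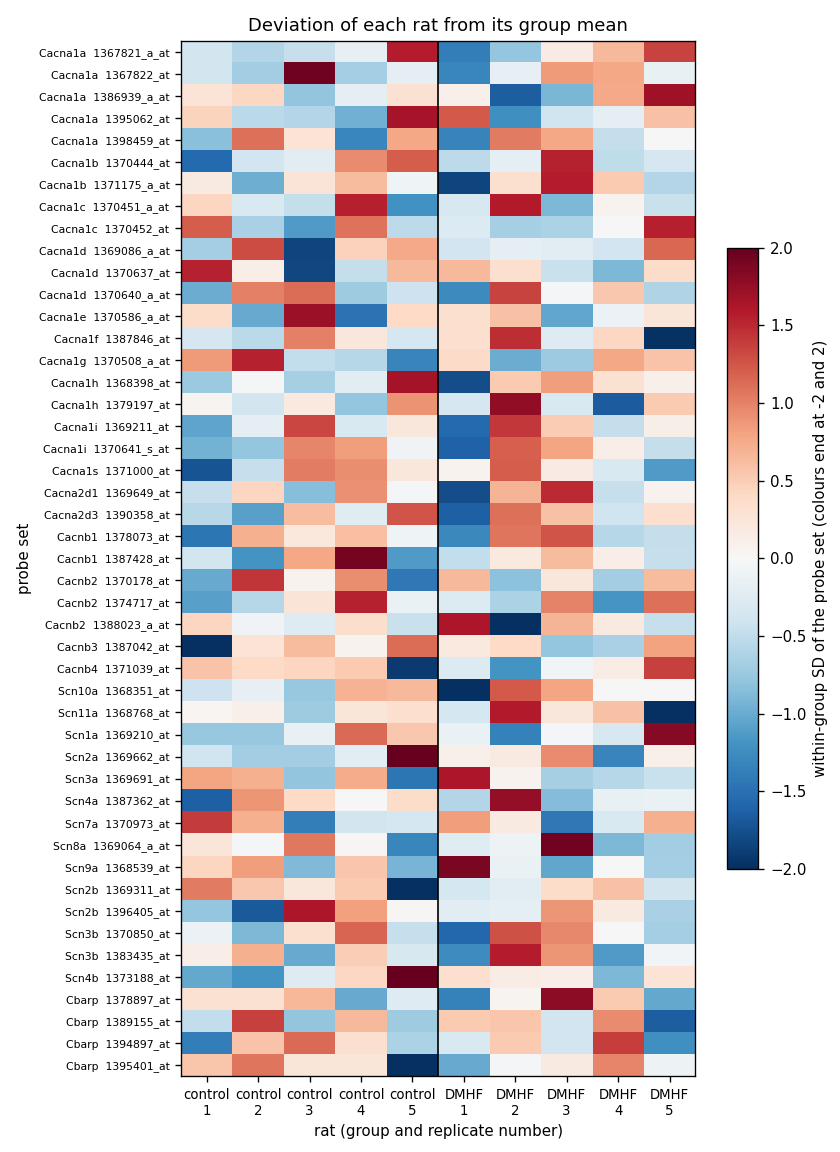
Deviation of each rat (columns) from its group mean for the 47 probe sets (rows), in within-group SD of the probe set. Red is above and blue below the group mean. The column of DMHF replicate 1 is the lowest of its group for 19 of the 47 probe sets, against 7449 of all 31042.

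Single rats differed in how the channel probe sets stood as a whole. DMHF replicate 1 was the lowest rat of its group for 19 of the 47 probe sets and the highest for 8, against 7449 and 7840 of all 31042 probe sets. Its median deviation was -0.32 SD against 0.02 over all probe sets. Control replicate 1 had a median deviation of -0.37 SD against -0.01, and was lowest for 12 of the 47, against 6573 of all 31042. Control replicate 4 lay at 0.35 SD against 0.00, above its group mean on 30 of the 47, against 50.0% of all probe sets. The other 7 rats had medians between -0.09 and 0.19 SD. The probe sets are not independent of each other, and these counts were not tested.

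These deviations ran with regional marker lists in some members, a relation examined after the values were seen. Over 47 probe sets and 12 marker lists, 564 relations in all, 0 passed an adjusted p of 0.05 by permutation test, and 71 (12.6%) had an unadjusted p under 0.05. The latter share was not computed over all probe sets, so nothing is read from it. The probe sets and the lists are not independent of each other, since the cerebellum list itself ran with the astrocyte list at r = 0.86. Of the 47, 7 reached r of 0.7 in size with the striatum list, where 10.2% of all probe sets did, and 8 with the cerebellum list, where 8.75% did. These lists had the highest shares. Over the 12 lists, the share among the 47 was above that of all probe sets for 5 and below it for 7, for example 8.51% against 10.4% for oligodendrocytes and 0% against 3.05% for endothelium.

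Cacna1g ran against the striatum list at r = -0.88 (rho -0.88, permutation p = 0.00121, adjusted p = 0.171, n = 10 rats), and at -0.81 without the 2 rats farthest from its median. Scn4b ran with the same list at r = 0.71 (rho 0.50, permutation p = 0.0172, adjusted p = 0.304, n = 10 rats), and at 0.46 without 2 rats, so that this relation rests largely on those rats. Cacna1a on 1395062_at ran with the cerebellum list at r = 0.88 (rho 0.85, permutation p = 0.00114, adjusted p = 0.171, n = 10 rats; r = 0.79 without 2 rats). The other Cacna1a probe sets had r from -0.52 to 0.72 with that list.

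Cacnb1 on 1378073_at had the largest r in size, -0.93 with the cerebellum list (rho -0.92, permutation p = 0.00020, adjusted p = 0.113, n = 10 rats; r = -0.91 without 2 rats). With single rats left out it ranged from -0.97 to -0.91. Without control replicate 5, with list scores rescaled to the remaining rats, it had an adjusted p of 0.0395 by permutation test, as had Cacna1a 1395062_at (r = 0.94). Leaving out control replicate 2 gave an adjusted p of 0.0395 for Scn3b 1370850_at with the cerebellum list (r = -0.94, permutation test). Over all 10 rats that relation had r = -0.79 and an adjusted p of 0.257 by the same test. Leaving out control replicate 4 gave 0.0338 for Cacna1h 1379197_at with the microglia list (r = -0.91, permutation test). Over all 10 rats it had r = -0.58 and an adjusted p of 0.423. Apart from those named here, no relation passed when all 564 were rerun with each rat left out. The brighter Cacnb1 probe set, 1387428_at, had r = -0.52 with the cerebellum list. Scn3a ran with the sensory ganglion list at r = 0.86 (rho 0.82, permutation p = 0.00190, adjusted p = 0.193, n = 10 rats). Scn9a did so at r = 0.85 (rho 0.89, permutation p = 0.00205, adjusted p = 0.193, n = 10 rats). The other sensory neuron pores, Scn10a and Scn11a, had r of -0.34 and 0.04 with that list, which had 3 of its 4 measured genes below the array median. Scn9a also ran with the choroid plexus list at r = 0.76 (permutation p = 0.0115, adjusted p = 0.295, n = 10 rats).

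**Figure D5:**
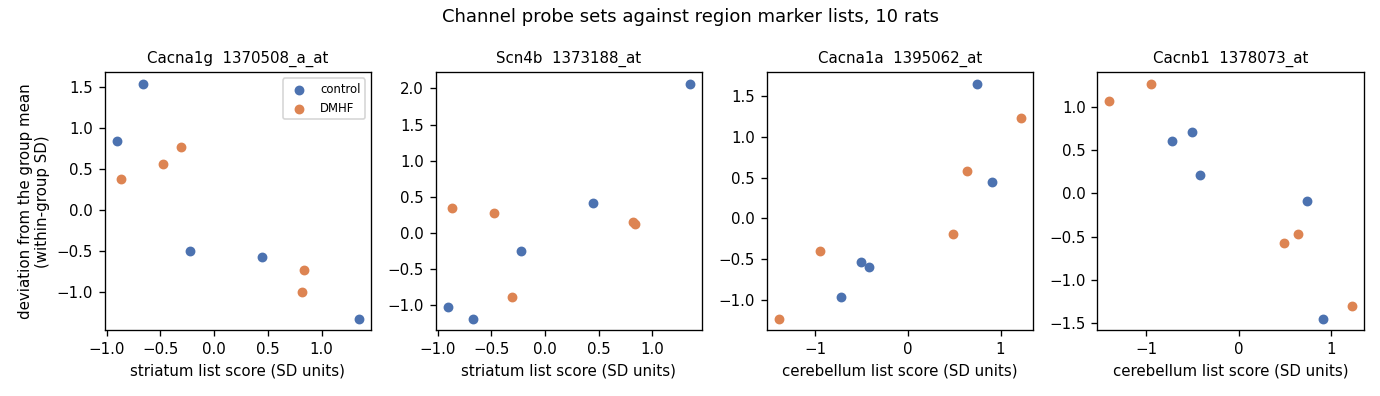
Deviation of 4 channel probe sets from the group mean (vertical axis, within-group SD) against the mean deviation of the striatum or cerebellum marker list (horizontal axis, SD units) in 10 rats. Points are rats, coloured by group. Cacna1g runs against the striatum list (r = -0.88) and Cacnb1 1378073_at against the cerebellum list (r = -0.93), while Scn4b and Cacna1a 1395062_at run with theirs (r = 0.71 and 0.88).

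Genes that work with these channels gave no call either. Of 60 partner genes listed (among them the stargazin family Cacng, the RGK GTPases, the sodium channel anchor ankyrin G, fibroblast growth factor homologous factors, calmodulin, release-site proteins, ryanodine receptors and calcium pumps), 55 were measured. On the brightest probe set of each gene, 25 had a positive and 30 a negative difference, with a median of -0.03 SD. By limma 0 passed an adjusted p of 0.05 in either direction, and at an unadjusted p under 0.05 there were 0 higher and 2 lower, where 3.23% and 2.25% of all probe sets were. A count of 2 in 55 lies near that background.

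They were Tnr, a matrix protein of perineuronal nets and nodes that binds sodium channel beta subunits, and Rem1, an RGK GTPase that inhibits calcium channels. Tnr differed by -14.2 millionths (SE 5.10), or -1.76 SD, with 3 of 5 DMHF rats below all controls. Rem1 differed by -3.04 (SE 1.37), or -1.40 SD, also with 3 of 5 below all controls. Cacng7, an auxiliary subunit of AMPA receptors related to calcium channel gamma subunits, had the largest positive difference in SD units, at 1.21 SD or 9.65 millionths (SE 5.06). Stac3, a calcium channel adaptor of muscle, followed at 1.07 SD, or 4.30 millionths (SE 2.53).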

How the data were processed

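Brain RNA of 10 rats was measured on 10 Affymetrix arrays, 5 in each group, and their number limits the precision. The authors deposited log2 expression values made with R 2.7.2, per the submitters' processing notes. The sources used here do not give background correction, normalization or summary, and the log2 scale is read from the range of 5.25 to 14.22.

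Of 31099 probe sets, 57 controls were left out. Of 31042 tested, 20826 name 1 gene, 436 several and 9780 none in the platform annotation. All 29 genes were found under the same symbol in the RefSeq gene table (GRCr8).

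DMHF and control were compared by limma 3.58.1 in R 4.3.3, with no covariate and Benjamini-Hochberg adjustment over all probe sets. The script was tested on simulated data. Correlations over rats used deviations from group means and 100000 permutations (two-sided). A list score is the mean deviation of its genes in SD units. Each partner and marker gene was read on its probe set with the highest mean level only.

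Alternatives were a replicate block, array weights, probe sets of above-median brightness only, array medians set equal, quantile normalization, a trended and robust variance, ordinary least squares, 1 probe set per gene and leaving out each array. Named were all Cbarp probe sets, in each family up to 4 with the largest difference and up to 2 with the largest spread, main neuronal channels by name, and up to 4 partners. The genes and lists were chosen with earlier results of these data known, and the marker list correlations after the values were seen.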

Additional observations from a re-analysis of the deposited data

Results flagged for a closer look

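In 94 groups of 5 rats (47 probe sets, both groups), 13 had a single rat far from the others. For independent groups, chance gives about 1 in 20, or 4.70. The same rat, control replicate 5, stood apart in 5 of the 13. The probe sets are not independent and the share over all probe sets was not computed, so the count is not read as a trait of the channel genes. Values are millionths of a log2 unit from the control mean.

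Control replicate 5 was the highest of its group for Cacna1a 1367821_a_at at 10.9, with the next control at -1.10, and for Scn2a at 0.476, with the next at -0.0540. It was the lowest for Cacnb4 at -33.4, with the next at 6.88. It was also the lowest for Scn2b 1369311_at at -35.3, with the next at 3.43, and for Cbarp 1395401_at at -11.3, with the next at 1.26. Control replicate 3 was the highest for Cacna1a 1367822_at at 6.51, with the next at -0.614, and the lowest for Scn11a at -6.50, with the next at 0.354.

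Among DMHF rats, replicate 3 was the highest for Cacna1b 1370444_at at 1.29, with the next at -0.191, and for Scn8a at 3.03, with the next at -3.59. Replicate 5 was the highest for Cacna1d 1369086_a_at at 0.756, with the next at -0.493. Replicate 2 was the highest for Scn4a at 4.17, with the next at 1.50. Replicate 1 was the lowest for Cacna1h 1368398_at at -24.4, with the next at 2.73. Replicate 4 was the lowest for Scn4b at -16.8, with the next at -7.87.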

How the results depend on the processing

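Over all probe sets, 0 passed an adjusted p of 0.05 by limma, 13 after quantile normalization and 0 to 1 with single arrays left out (1 without DMHF replicate 2), with 0 channel or Cbarp probe sets among them under each alternative run. Quantile normalization left 10076 probe sets to test, 16 of them among the 47. Channel and Cbarp probe sets higher at an unadjusted p under 0.05 (3) numbered 5 with the replicate block, 0 with a common array median, 1 among probe sets of above-median brightness, 1 with 1 probe set per gene, and 1 to 4 with single arrays left out. Those lower (1) numbered 3 with the replicate block, 0 after quantile normalization, 0 with a common array median, 2 with array weights and 1 to 3 with single arrays left out. Groups that did not overlap numbered 0 higher after quantile normalization or a common array median, against 1, and 1 to 2 higher and 0 to 1 lower with single arrays left out. Partner genes higher (0) numbered 2 with the replicate block, 1 after quantile normalization, 1 with a common array median and 0 to 1 with single arrays left out. Partners lower (2) numbered 0 after quantile normalization, 1 with the block, the common median, the brighter probe sets, array weights or ordinary least squares, and 1 to 2 with single arrays left out. Some of these counts fell because probe sets were dropped. Of the 3 higher ones, those of Cacna1h at a mean level of 6.26 and Cbarp at 7.21 were not among the brighter probe sets. The lower partner Rem1, at 6.64, was not among them either. Quantile normalization left no Cacna2d3 probe set to test, and 17 of the 55 partner genes. For dropped probe sets, a lower count is not a changed result. The cause of the other shifts was not tested. The Cbarp 1389155_at difference ranged from 1.59 to 1.75 with single arrays left out. The median difference of the 47 was 0.18 SD, 0.52 after quantile normalization (over the 16 left), 0.07 with a common array median, 0.20 with array weights, -0.06 in the brighter probe sets and -0.01 to 0.4 with single arrays left out. Relations with marker lists past the adjusted threshold (0) numbered 0 to 2 with single arrays left out. Of 640 values of single probe sets under alternatives, 631 stayed within 1 SD. The other 9 were among the 16 left by quantile normalization, for example Cacna1a 1367822_at at 97.3 millionths against -0.809. The replicate block and the restriction to brighter probe sets leave a difference unchanged by design, so their values could not move. Leaving out 1 of 5 rats cannot shift a difference by 1 SD either. A common array median shifted each difference by the same amount, smaller than any within-group SD of the 47. Only quantile normalization and array weights could thus have moved a value, and the 631 is not read as stability. Of the 47 differences, 26 kept their sign with each array left out. Whether replicate numbers pair the rats is not settled by these values. The 5 same-numbered pairs had correlations of 0.21, 0.03, 0.27, 0.09 and 0.03, with 2 above 0.1, and 3 numbers matched best with themselves. With the replicate block, the smallest adjusted p over all probe sets by limma was 0.172, against 0.698 without it.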

Other observations

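Other marker lists, none of which was tested as a list, differed in count between the groups as follows. Pituitary markers, all 5 below the array median, were nominally higher in DMHF on 4 of 5 genes, with a mean score from -1.22 to 0.67 SD in controls and 0.56 to 1.89 in DMHF rats. Sensory ganglion markers were higher on 3 of 4, neuron markers on 4 of 6, astrocyte markers on 4 of 5, microglia markers on 3 of 5, cerebellum markers on 3 of 5 and muscle markers on 3 of 6. Oligodendrocyte markers were higher on 1 of 4 and endothelium markers on 1 of 4.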
